A study of Mus musculus with 16 samples.

Results

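The genes described here are the Wnt ligands, their Frizzled receptors and the secreted antagonists of the Sfrp and Dkk families in embryonic mouse pancreas. They are all symbols of the deposited read table that start with Wnt, Fzd, Sfrp or Dkk followed directly by a digit. These were 37 of the 22869 symbols counted, comprising 19 Wnt, 10 Fzd, 4 Sfrp and 4 Dkk genes. RNA of pancreata at embryonic day 15.5 was sequenced from 4 genotypes: double heterozygous (Pdx1LacZ/+;Oc1+/-, 5 libraries), Pdx1 heterozygous (Pdx1LacZ/+, 4 libraries), Oc1 heterozygous (Oc1+/-, 3 libraries) and control (4 libraries). Pdx1 is a homeodomain factor of pancreas and beta cells, and Oc1 is the protein of the gene listed as Onecut1, a factor of pancreatic progenitors and ducts. The labels give a mixed background for all 16 samples and describe the controls no further, while the heading of the comparison table calls them WT. Nothing in the labels says whether libraries of a group came from separate litters, so a p-value measures the spread between these libraries. The comparisons ask what losing 1 copy of either gene, or of both, does to the pancreas. The read counts per library were not used, because no label ties those columns to a sample. Each value below is therefore a log2 fold change between groups, from the authors' deposited table or derived from it, and no value per library, SD or depth is given.

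Wnt proteins are secreted lipid-modified ligands that bind Frizzled receptors on the cell surface. In the canonical branch this stabilises beta-catenin, which acts with TCF and LEF factors on target genes; other branches act on cell polarity and calcium. Sfrp proteins resemble the ligand-binding domain of Frizzled and bind Wnts outside the cell, and Dkk proteins mostly block the Lrp co-receptors. In the developing pancreas, both epithelium and mesenchyme exchange Wnt signals, and the pathway is known for roles in the growth of acinar and progenitor cells.

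The authors' deposited table lists 2283 genes, each with an adjusted p under 0.1 and a fold change of at least 1.5 together in at least 1 of its 5 comparisons. It lists 11 of the 37 genes: Wnt5b, Wnt10b, Wnt11, Fzd5, Fzd7, Fzd9, Fzd10, Sfrp1, Sfrp2, Sfrp5 and Dkk1. The other 26 did not reach that listing rule in any of the 5 comparisons, and no values for them were used. They are Wnt1, Wnt2, Wnt2b, Wnt3, Wnt3a, Wnt4, Wnt5a, Wnt6, Wnt7a, Wnt7b, Wnt8a, Wnt8b, Wnt9a, Wnt9b, Wnt10a, Wnt16, Fzd1, Fzd2, Fzd3, Fzd4, Fzd6, Fzd8, Sfrp4, Dkk2, Dkk3 and Dkk4. Genes with an adjusted p under 0.05 and at least a 1.5-fold change were called, and "rose" and "fell" are used only for them.

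The library groups were first checked on the targeted genes and on pancreas genes per the authors' deposited table. Pdx1 stood at -0.61 in the double and -0.47 in the Pdx1 heterozygotes against control (adjusted p = 5.03e-07 and 0.00427). Onecut1 stood at -0.27 in the double and -0.48 in the Oc1 heterozygotes against control per the authors' deposited table, and neither passed (adjusted p = 0.954 and 0.146). In the Pdx1 heterozygotes it stood at 0.42 against control and did not pass either (adjusted p = 0.828 per the authors' deposited table). Compared directly with the Pdx1 heterozygotes, Onecut1 was lower in both genotypes that carry the Oc1 allele. It fell by 0.70 in the double heterozygotes (adjusted p = 0.0319), and the Pdx1 less the Oc1 heterozygote value was 0.90 (adjusted p = 0.00191), both per the authors' deposited table. Pancreas genes were abundant per the authors' deposited table, with a mean log2 CPM of 13.97 for the lipase-related Pnliprp1, 7.61 for insulin (Ins2) and 6.75 for the endocrine progenitor factor Neurog3. The Oc1 heterozygous libraries stood apart from control in more genes than the other genotypes, and also in the X-inactivation transcript Xist, at -8.78 per the authors' deposited table (adjusted p = 0.00249). Xist stood at -0.59 in the double and -0.45 in the Pdx1 heterozygotes against control, and neither passed. The Pdx1 less the Oc1 heterozygote value was 8.32 (adjusted p = 0.00543 per the authors' deposited table). Whether the sex of these embryos bears on any result below was not tested. In comparisons that include the Oc1 heterozygous libraries, a sex difference between groups cannot be told apart from genotype.

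The most abundant listed gene per transcript length was Sfrp1, a secreted Wnt-binding protein. Its mean over all libraries, converted from the authors' deposited table, was 199 CPM, or 45.6 CPM per kb of transcript. Sfrp2 averaged 32.5 CPM per kb and Fzd7, a receptor known from stem and progenitor cells, 11.6 CPM per kb. Fzd5 and Wnt5b followed at 4.68 and 4.28 CPM per kb. Wnt11, a ligand known for planar polarity signalling, had 2.04 CPM per kb and Fzd9 had 1.22 CPM per kb. Sfrp5, Fzd10 and Wnt10b were under 1 CPM per kb, with the lowest of these, Wnt10b, at 0.199 CPM per kb. The Lrp inhibitor Dkk1 was barely detected, at 0.123 CPM or 0.0508 CPM per kb, so its fold changes rest on very few reads. These means carry no error, since the table gives none.

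Sequences upstream of Wnt11, Wnt5b, Fzd7 and Sfrp2 are shown because these genes, with Sfrp1, form the group whose response to the Oc1 allele differed by Pdx1 genotype in the positive direction, as described further on. The windows come from RefSeq on GRCm38.p6, another build than the mm9 of the submitters' processing notes, and each covers the 250 bases before a RefSeq start site. Their positions are chr7:98834862-98835111 and chr7:98838595-98838844 (Wnt11, plus strand), chr6:119449387-119449636 (Wnt5b, minus strand), chr1:59481897-59482146 (Fzd7, plus strand) and chr3:83766071-83766320 (Sfrp2, plus strand). No exon of GENCODE M21 overlaps them. Letters in capitals mark exact matches to any of 4 motifs searched on both strands. They are ATTGAT and ATCGAT (cores of Onecut motifs), CTTTGAT (a form of the TCF and LEF core) and TATAAA (the TATA box). Other forms of these motifs were not searched, so a window without capitals may still hold them.
Wnt11, first start site: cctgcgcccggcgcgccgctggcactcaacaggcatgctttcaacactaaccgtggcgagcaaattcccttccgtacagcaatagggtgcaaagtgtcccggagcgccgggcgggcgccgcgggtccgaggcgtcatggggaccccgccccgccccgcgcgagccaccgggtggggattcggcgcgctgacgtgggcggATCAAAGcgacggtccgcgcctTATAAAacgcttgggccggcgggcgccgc
Wnt11, second start site: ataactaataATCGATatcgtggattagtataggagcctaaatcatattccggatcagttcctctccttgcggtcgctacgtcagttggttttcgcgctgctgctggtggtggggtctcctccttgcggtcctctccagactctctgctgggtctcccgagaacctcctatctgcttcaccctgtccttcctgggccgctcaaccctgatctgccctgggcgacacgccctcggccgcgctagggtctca
Wnt5b: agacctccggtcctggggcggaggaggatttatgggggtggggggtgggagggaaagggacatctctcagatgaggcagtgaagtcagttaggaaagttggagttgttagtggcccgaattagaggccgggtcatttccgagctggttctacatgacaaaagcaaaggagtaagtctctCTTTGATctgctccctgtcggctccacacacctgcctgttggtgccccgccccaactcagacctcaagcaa
Fzd7: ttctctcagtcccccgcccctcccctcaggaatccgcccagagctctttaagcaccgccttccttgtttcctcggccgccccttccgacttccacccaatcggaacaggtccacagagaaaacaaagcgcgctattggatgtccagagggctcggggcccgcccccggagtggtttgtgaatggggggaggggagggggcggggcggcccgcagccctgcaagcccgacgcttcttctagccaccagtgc
Sfrp2: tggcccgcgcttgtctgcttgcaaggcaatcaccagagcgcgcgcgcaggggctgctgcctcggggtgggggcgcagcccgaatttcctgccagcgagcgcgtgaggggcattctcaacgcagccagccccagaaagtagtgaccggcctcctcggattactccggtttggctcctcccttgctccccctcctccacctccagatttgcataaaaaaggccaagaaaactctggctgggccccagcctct
Wnt11 had the reverse complement of CTTTGAT, beginning 51 bases before its first start site, and a TATA box 29 bases before it. Its second start site had an ATCGAT 240 bases upstream. Wnt5b had CTTTGAT 71 bases before the start site shown. This window was picked for its match, and the windows of its 2 other start sites held none of the 4 motifs. Among all 32817 such windows of the mouse table, 3.21% held CTTTGAT, 0.728% ATCGAT, 6.73% ATTGAT and 12.4% TATAAA. Of 13 windows of 10 listed genes, 2 held CTTTGAT, 1 ATCGAT, 2 TATAAA and 0 ATTGAT. A match is a description of letters and says nothing of binding.

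Oc1 heterozygous pancreata had changes in ligands, receptors and antagonists against control. Among the 37 genes 4 fell and 2 rose per the authors' deposited table. Over all 22869 genes, 2.59% fell and 3.66% rose in this comparison. Together 6 of 37, or 16.2%, were called, against 6.24% of all genes. The median log2 fold change of the 11 listed genes was -0.77, against 0.06 over all 2283 listed genes; both sets were selected by the listing rule, so these medians are descriptions. The Sfrp and Frizzled genes with the most reads moved by less than 2-fold, and the larger fold changes belonged to genes with few reads.

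Among ligands, Wnt5b, which signals mainly outside the beta-catenin branch, fell by 0.82 in the Oc1 heterozygotes per the authors' deposited table (1.76-fold lower, adjusted p = 0.000862). Wnt10b, a canonical ligand, rose by 1.89 (3.72-fold, adjusted p = 0.00497 per the authors' deposited table). Its approximate 95% interval, recovered from the p-value, ran from 0.84 to 2.94, and its mean was 0.443 CPM. Wnt11 stood at -0.31 and did not pass (adjusted p = 0.61 per the authors' deposited table; approximate 95% interval -0.92 to 0.29).

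Receptors moved in both directions in the same libraries. Fzd7 fell by 0.79 (1.72-fold, adjusted p = 3.1e-08) and Fzd10, a receptor known for canonical signalling, by 1.40 (2.64-fold, adjusted p = 0.0088) per the authors' deposited table. Fzd5, a receptor known from intestinal epithelium, rose by 0.60 per the authors' deposited table, just over the fold minimum (1.52-fold, adjusted p = 1.03e-05). Fzd9 stood at 0.64 with an adjusted p of 0.0554 per the authors' deposited table and was not called. The Frizzled genes called were thus 2 lower and 1 higher out of 10.

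Of the antagonists, Sfrp1 fell by 0.77 per the authors' deposited table (1.71-fold, adjusted p = 5.16e-08). Sfrp2 passed the adjusted p but not the fold minimum, at -0.46 (1.38-fold, adjusted p = 0.0344 per the authors' deposited table). Sfrp5 stood at -0.96 and Dkk1 at -3.78 per the authors' deposited table, neither past the threshold (adjusted p = 0.0719 and 0.0663). The approximate 95% interval of Dkk1 ran from -6.70 to -0.86.

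**Figure D1:**
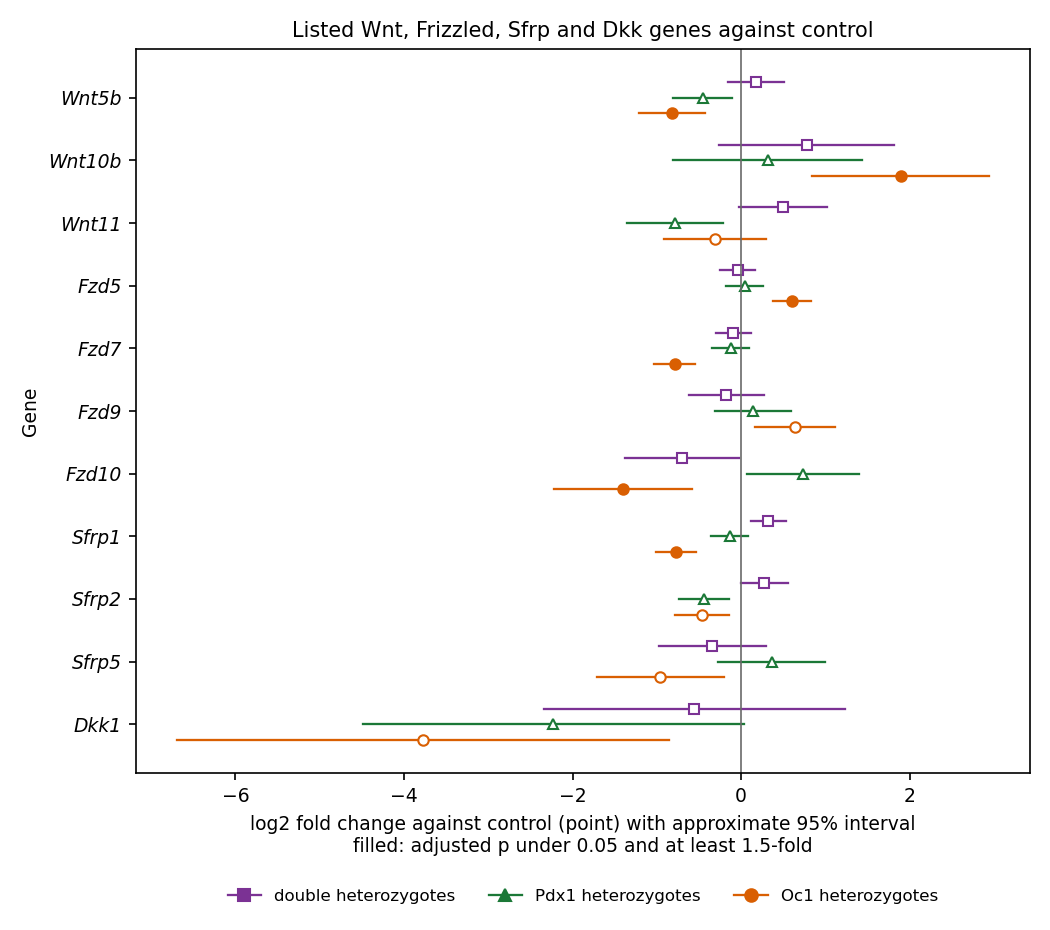
Log2 fold changes against control (x axis) of the 11 listed genes (y axis) in the double, Pdx1 and Oc1 heterozygotes. Points are the authors' values, bars approximate 95% intervals recovered from the p-values, and filled points passed adjusted p 0.05 and 1.5-fold; the 6 filled points all belong to the Oc1 heterozygotes.

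Other cell types moved in this comparison as well. Of 26 acinar enzyme genes counted, 22 rose and none fell in the Oc1 heterozygotes (24 listed; without adjustment, 23 higher and 0 lower at p under 0.05 by edgeR). On the mesenchyme list 3 of 25 fell, namely Nkx3-2, Tcf21 and Pdgfra (-1.67, -1.11 and -0.61 per the authors' deposited table), and 5 of 6 spleen anlage genes fell, Nkx3-2 among them. On the neural and Schwann list 5 of 15 fell and 1 rose. Among endocrine genes 5 of 7 hormones rose and 3 of 13 progenitor genes fell. The endothelial list had no listed gene among its 10. The part of these cell types in the Wnt pathway results was not tested. In whole tissue, fewer cells of a type and less RNA per cell cannot be told apart.

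Several Wnt feedback and target genes were lower in the Oc1 heterozygotes. Of 19 such genes counted, 9 fell and none rose, while 7 were unlisted. Among the 12 listed ones, 10 were lower and 1 higher at an unadjusted p under 0.05 by edgeR. The 7 unlisted genes have no p-value here. Over all genes 2.59% fell, as given above. The list was chosen with earlier results of these data known, so its counts are descriptions. Axin2, the negative regulator that canonical signalling induces, fell by 0.75 (adjusted p = 2.1e-06 per the authors' deposited table). Nkd1, an inducible inhibitor of Dishevelled, fell by 0.65 (adjusted p = 1.08e-07 per the authors' deposited table). Lef1 and Tcf7, nuclear partners of beta-catenin, stood at -1.38 and -0.70 per the authors' deposited table (adjusted p = 0.00918 and 0.000127). Lgr5, an R-spondin receptor, stood at -0.64 (adjusted p = 0.0447), and the membrane antagonist Apcdd1 at -0.78 (adjusted p = 0.00147 per the authors' deposited table). Dact1, Dact3 and Tnfrsf19 completed the 9, at -0.74, -0.62 and -0.60 per the authors' deposited table (adjusted p = 2.35e-06, 0.00307 and 0.000789). Notum, a target that removes the lipid of Wnt proteins, stood at 0.54 under the fold minimum (adjusted p = 0.044 per the authors' deposited table). Sp5, another direct target, stood at -1.22 and did not pass (adjusted p = 0.223 per the authors' deposited table). In the double and Pdx1 heterozygotes none of the 19 was called against control by the edgeR test of the authors, and 1 and 0 listed genes had an unadjusted p under 0.05.

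**Figure D2:**
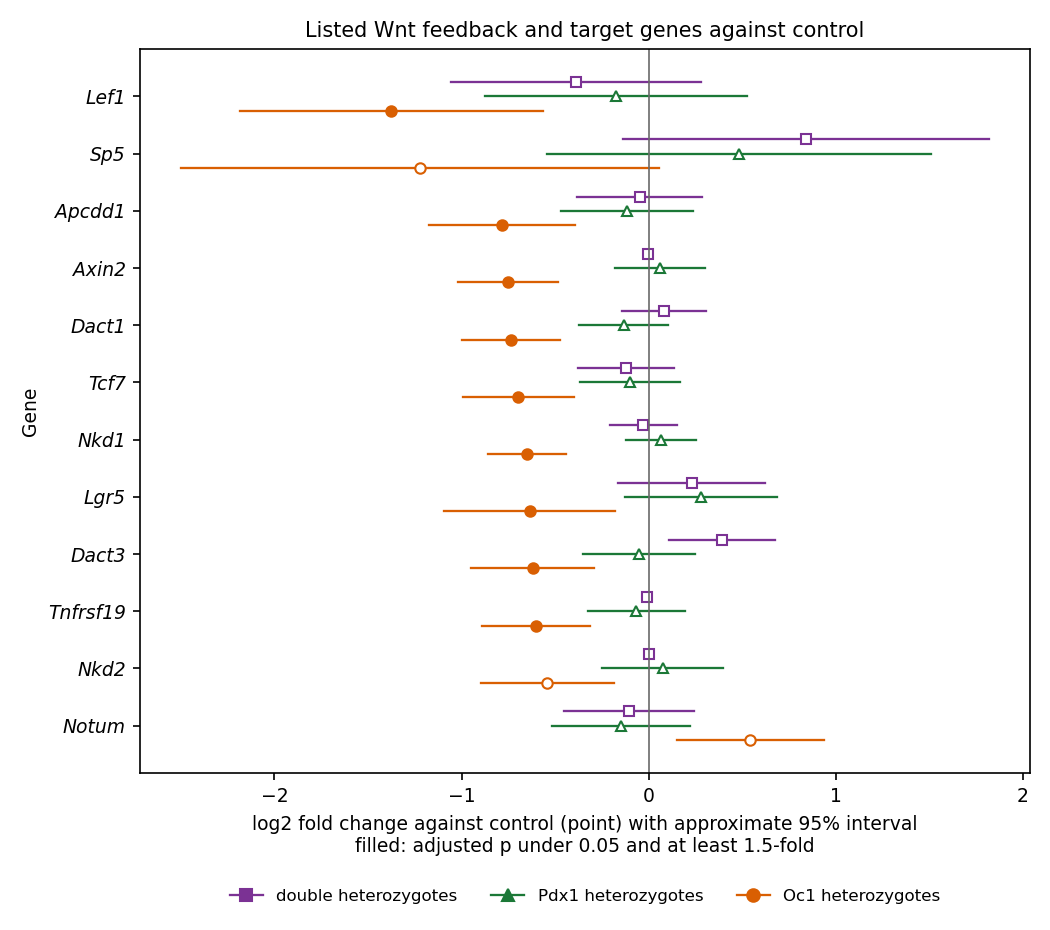
Log2 fold changes against control (x axis) of the 12 listed Wnt feedback and target genes (y axis) in the double, Pdx1 and Oc1 heterozygotes, with approximate 95% intervals where the p-value was under 0.9. Filled points passed adjusted p 0.05 and 1.5-fold; the 9 filled points are Oc1 heterozygous values below 0.

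Beyond the members, 96 Wnt pathway genes were counted, among them the 19 feedback and target genes. Of the 96, 16 fell and 2 rose in the Oc1 heterozygotes, or 18.8% called against 6.24% of all genes, and 71 were unlisted. The 16 include the 9 feedback and target genes above. Of the 77 others, 7 fell and 2 rose, or 11.7% called. Rspo3, an R-spondin that amplifies Wnt signals, fell by 0.89 (adjusted p = 0.000496 per the authors' deposited table). The alternative receptor Ror1, which binds Wnt5 proteins, fell by 0.65 (adjusted p = 0.00033), and the heparan sulfate carrier Gpc6 by 0.66 (adjusted p = 0.000145 per the authors' deposited table). Sostdc1, a secreted antagonist of Wnt and BMP signals, rose by 2.60 (adjusted p = 2.1e-11 per the authors' deposited table). It was also 3.48-fold higher in the double and 2.34-fold higher in the Pdx1 heterozygotes per the authors' deposited table (adjusted p = 5.68e-06 and 0.0404), all against the same control libraries. By list, 1 of 10 secretion genes (Gpc6) and 2 of 9 R-spondin and Lgr genes (Rspo3 and again Lgr5) fell. So did 2 of 10 on the co-receptor list (Ror1, and Mcc, which is not itself a receptor). Among beta-catenin branch genes 3 of 28 fell (Apc2 and again Lef1 and Tcf7). No gene on these lists rose. Among their listed genes alone, 1 was higher at an unadjusted p under 0.05 by edgeR, Notum. Their unlisted genes, which are most of these lists, have no p-value here. Of 9 other antagonists 1 fell, again Apcdd1, and 1 rose, Sostdc1.

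Neither the double nor the Pdx1 heterozygotes had a called member against control. In the double heterozygotes 0 of 37 passed, against 0.743% of all genes, and 2 listed members had an unadjusted p under 0.05 by edgeR. These were Sfrp1 at 0.32 and Fzd10 at -0.70 per the authors' deposited table (adjusted p = 0.151 and 0.644). In the Pdx1 heterozygotes 0 of 37 passed, against 0.249% of all genes, and 4 listed members had an unadjusted p under 0.05 by edgeR. Fzd10 stood at 0.73, Wnt11 at -0.79, Wnt5b at -0.46 and Sfrp2 at -0.44 per the authors' deposited table (adjusted p = 0.778, 0.426, 0.551 and 0.307). The approximate 95% interval of Wnt11 was -1.36 to -0.22 in the Pdx1 heterozygotes. Marker genes moved too. In the double heterozygotes 5 of 7 hormones and 6 of 13 endocrine progenitor genes fell and none rose. On the liver list 7 of 14 fell and 1 rose. In the Pdx1 heterozygotes no smooth muscle or liver gene fell, and 1 liver gene rose. At an unadjusted p under 0.05 by edgeR, 7 of 10 smooth muscle genes were higher there and none lower. By the same measure 8 of 14 liver genes were lower and 1 higher. Their part in the Wnt results was not tested.

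Between double and Pdx1 heterozygotes, which differ by the Oc1 allele, Wnt11, Wnt5b and Sfrp2 were higher in the double heterozygotes. Of the 37 genes, 3 rose and 1 fell by the authors' deposited values, against 0.232% and 0.63% of all genes. Wnt11 rose by 1.28 (2.44-fold, adjusted p = 0.0012) and Wnt5b by 0.64 (1.56-fold, adjusted p = 0.0218) (sign turned) per the authors' deposited table. Sfrp2 rose by 0.71 (1.64-fold, adjusted p = 0.000383 per the authors' deposited table). Sfrp1 passed the adjusted p but not the fold minimum, at 0.45 (adjusted p = 0.00409 per the authors' deposited table). Fzd10 fell by 1.43 (2.70-fold, adjusted p = 0.00295 per the authors' deposited table). These directions rest on the table's headings: were the double and Pdx1 headings exchanged, all 4 would turn, and so would the interactions of Wnt11 and Sfrp2 given further on. The variances did not favour that reading, and it would put Onecut1 higher in double than in Pdx1 heterozygotes. Spleen anlage genes moved too: 3 of 6 rose, namely Nkx2-5, Nkx3-2 and Wt1 at 2.80, 1.07 and 0.60 per the authors' deposited table, and so did 2 of 25 mesenchyme genes, Barx1 at 0.96 and Nkx3-2. On the smooth muscle list 2 of 10 fell, Cnn1 and Myh11 at -2.82 and -1.91 per the authors' deposited table. Among endocrine genes 5 of 7 hormones (Ins1, Ins2, Iapp, Sst and Ghrl) and 2 of 13 progenitor genes fell, and 4 of 26 acinar enzymes fell. Their part in the Wnt results was not tested.

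The single heterozygotes differed from each other in receptors and antagonists. Pdx1 heterozygotes had 4 of 37 genes higher and 1 lower than Oc1 heterozygotes, against 2.2% and 2.46% of all genes. Fzd10 was higher by 2.13 (4.38-fold, adjusted p = 1.75e-05 per the authors' deposited table). Sfrp5 was higher by 1.32 (adjusted p = 0.00742), Fzd7 by 0.67 (adjusted p = 7.92e-06) and Sfrp1 by 0.64 (adjusted p = 2.01e-05) per the authors' deposited table. Wnt10b was lower, at -1.58 (adjusted p = 0.0226 per the authors' deposited table), and Fzd5, at -0.56 and 1.48-fold, passed the adjusted p alone (7.9e-05). Of the smooth muscle list 7 of 10 genes were higher in the Pdx1 heterozygotes, with Myh11 at 3.22 and Actg2 at 3.12 per the authors' deposited table. Acinar enzymes were lower in the Pdx1 heterozygotes for 21 of 26 genes, and hormones for 4 of 7 with 1 higher. Of 25 mesenchyme genes 4 were higher, and of 15 neural and Schwann genes 5 were higher and 1 lower. The part of these cell types in the Wnt values was not tested. Among the 19 feedback and target genes 8 were higher and 1, Notum, was lower (-0.69, adjusted p = 0.00846 per the authors' deposited table). Axin2 and Lef1 stood at 0.81 and 1.20 (adjusted p = 5.77e-07 and 0.0354 per the authors' deposited table).

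Double heterozygotes against Oc1 heterozygotes is named in a heading of the table, but the values under it are those of Pdx1 against Oc1 heterozygotes. The comparison was therefore derived from the others, with approximate normal p-values. The double heterozygotes had 4 of 37 genes higher and 2 lower, against 2.09% and 2.79% of all genes. Only listed genes, 11 of the 37 and at most 2283 of all genes, could be called here, so these shares are descriptions. Sfrp1 was higher by 1.09 (approximate SE 0.117, adjusted p = 1.98e-17), Sfrp2 by 0.74 (SE 0.156, adjusted p = 8.7e-05) and Fzd7 by 0.69 (SE 0.117, adjusted p = 2.56e-07). Wnt5b was higher too, with an approximate 95% interval of 0.63 to 1.37 (adjusted p = 7.79e-06). Fzd9 was lower, at -0.81 (SE 0.236, adjusted p = 0.0122), as was Fzd5, at -0.65 (SE 0.112, adjusted p = 6.95e-07). Wnt11 stood at 0.81 and did not pass (SE 0.297, adjusted p = 0.104). In the same comparison 22 of 26 acinar enzymes and 6 of 7 hormones were lower, while 5 of 6 spleen anlage, 4 of 25 mesenchyme and 3 of 10 smooth muscle genes were higher; their part in the Wnt values was not tested. This comparison and the 2 before it with Oc1 heterozygotes share the same 3 libraries and are not independent.

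The Oc1 allele went with different changes in these genes depending on the Pdx1 genotype. The interaction is the change with the Oc1 allele on the Pdx1 heterozygous background (double minus Pdx1 heterozygotes) less that on the wild-type background (Oc1 heterozygotes minus control). It was above 0 and called for 5 of 37 genes and below 0 for 1, against 1.66% and 2.97% of all genes. Unlisted genes could not be called here, since only 11 of the 37 and 2265 of all genes had this test. Genes were listed for changes in comparisons that make up the interaction, so these shares are descriptions. Wnt11 stood at 1.28 on the Pdx1 heterozygous and -0.31 on the wild-type background, an interaction of 1.60 (approximate SE 0.414, adjusted p = 0.00357). Wnt5b stood at 0.64 and -0.82 on these backgrounds, with an interaction of 1.45 (SE 0.263, adjusted p = 4.71e-06).

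Sfrp1 and Sfrp2 had the same order. Sfrp1 stood at 0.45 on the Pdx1 heterozygous and -0.77 on the wild-type background (interaction 1.23, SE 0.163, adjusted p = 9.3e-11). Sfrp2 stood at 0.71 and -0.46 (interaction 1.18, SE 0.217, adjusted p = 7.61e-06). For the receptors Fzd7 and Fzd5 the change was near 0 on the Pdx1 heterozygous background. Fzd7 stood at 0.03 there and -0.79 on the wild-type background (interaction 0.81, SE 0.163, adjusted p = 4.39e-05). Fzd5 stood at -0.08 and 0.60 (interaction -0.69, SE 0.156, adjusted p = 0.000557).

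Fzd10 was lower with the Oc1 allele on both backgrounds, at -1.43 on the Pdx1 heterozygous and -1.40 on the wild-type background. Its interaction was -0.03, with an approximate 95% interval of -1.08 to 1.02 that leaves room for a 2-fold difference. Sfrp5 stood at -0.70 and -0.96 on these backgrounds (interaction 0.25, approximate 95% interval -0.72 to 1.22, adjusted p = 1). Fzd9, Dkk1 and Wnt10b had interactions of -0.95, 5.45 and -1.43 that did not pass (adjusted p = 0.0745, 0.0544 and 0.726). Markers moved with the interaction as well: it was above 0 and called for 5 of 6 spleen anlage and 4 of 25 mesenchyme genes, and below 0 for 22 of 26 acinar enzymes and 5 of 7 hormones. Their part in the interaction of the Wnt genes was not tested. Only listed genes could be called in these marker counts and in the pathway counts that follow. Among the 96 pathway genes it was called above 0 for 13, 6 of them feedback and target genes, and below 0 for 2, against 1.66% and 2.97% of all genes, with Rspo3 at 1.53 (adjusted p = 4.14e-06) and Axin2 at 0.69 (adjusted p = 0.00397).

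**Figure D3:**
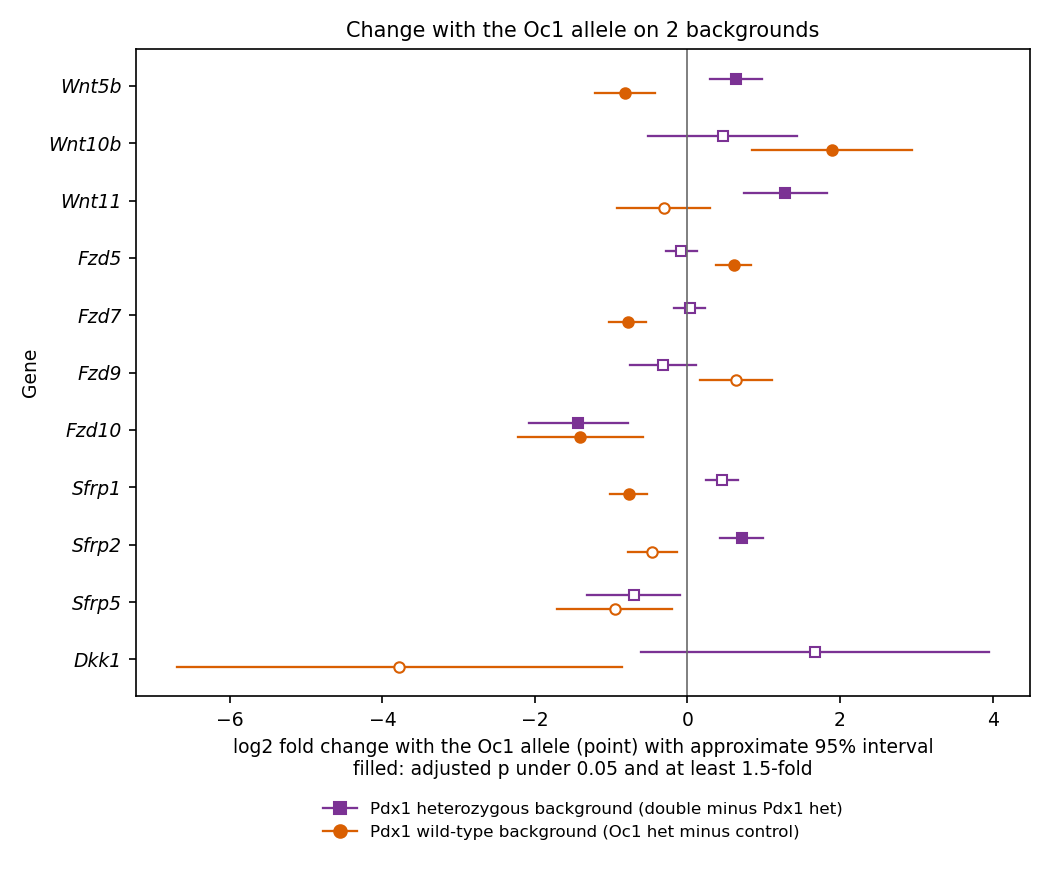
Log2 fold change with the Oc1 allele (x axis) for the 11 listed genes (y axis) on the Pdx1 heterozygous background (double minus Pdx1 heterozygotes, squares) and the wild-type background (Oc1 heterozygotes minus control, circles), with approximate 95% intervals. Filled points passed adjusted p 0.05 and 1.5-fold. The points of Wnt5b, Wnt11, Fzd5, Fzd7, Fzd9, Sfrp1, Sfrp2 and Dkk1 lie on opposite sides of 0. How common this is among all listed genes was not counted, so it is a description only. Of these genes, only Wnt5b was called on both backgrounds. The intervals of Fzd5, Fzd7, Fzd9 and Dkk1 on the Pdx1 heterozygous background include 0, as does that of Wnt11 on the wild-type background. Fzd10 lies at -1.43 and -1.40.

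**Figure D4:**
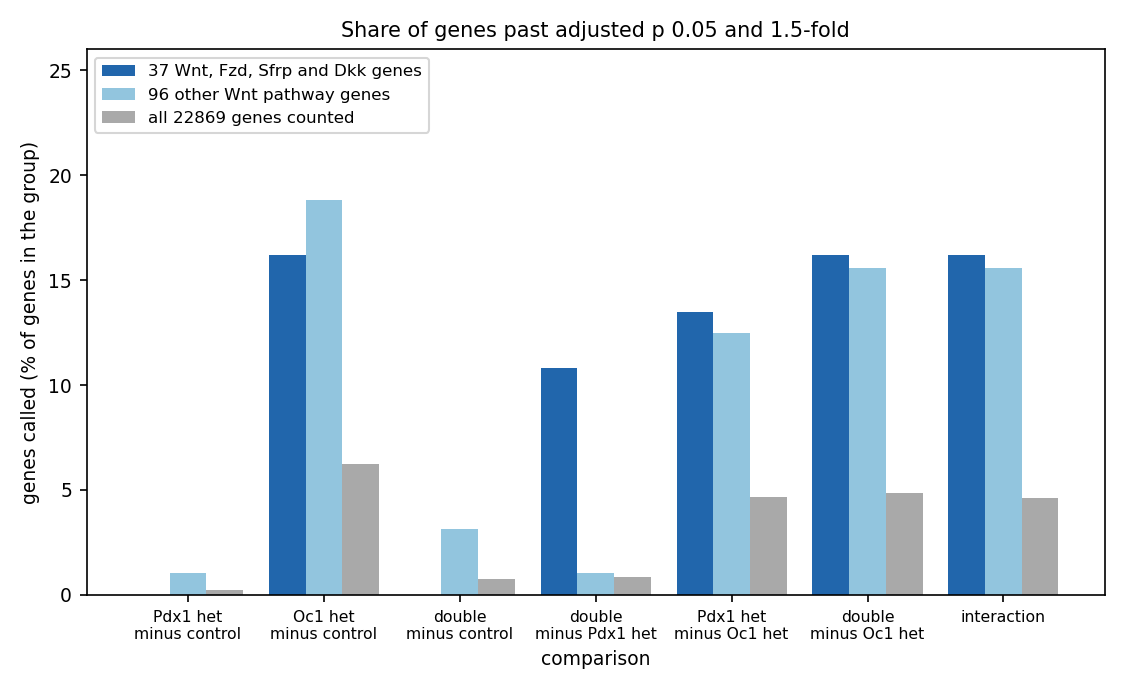
Percent of genes called (y axis) in each of 7 comparisons (x axis) among the 37 Wnt, Fzd, Sfrp and Dkk genes, 96 other Wnt pathway genes (the 19 feedback and target genes included) and all 22869 genes counted. The 37 genes reach 16.2% in Oc1 heterozygotes against control, where all genes reach 6.24%, and 0% in the double and Pdx1 heterozygotes against control. In double minus Oc1 heterozygotes and the interaction, only listed genes could be called.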

How the data were processed

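The submitters' processing notes name CASAVA 1.8.2, build mm9 and edgeR; the aligner and the edgeR version are not given in the sources used here. The authors' deposited table has 5 blocks, each with a log2 fold change (logFC), the mean expression as log2 CPM, the p-value and its adjusted form (FDR), per the file headers. It was read with Python 3.11.15, pandas 2.3.3 and scipy 1.17.1. The 16 per-library columns of the deposited counts were not used, because no label ties them to samples, and only gene symbols were read.

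Values under headings 4 and 5 belong to other comparisons. In 2275 of 2275 rows block 4 was the Pdx1 less the double heterozygote, and in 2279 of 2279 block 5 was the Pdx1 less the Oc1 heterozygote (tolerance 1e-06), so they were used as such, with block 4 turned. The same arithmetic holds with the headings of blocks 1 and 3 exchanged. Median variances recovered from the p-values, relative to block 1, were 1.15, 0.905, 0.897 and 1.14 in blocks 2 to 5; group sizes give 1.17, 0.9, 0.9 and 1.17 with these headings and 1.30, 1.11, 1 and 1.19 with the exchange, so the headings were kept; with them the targeted gene Onecut1 fell in double against Pdx1 heterozygotes, and with the exchange its sign would turn. In 8 rows, none of them a member, values standing 1 column to the right were moved back.

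Approximate SEs and intervals were recovered by setting each log2 fold change against the normal deviate of its p, for p under 0.9. Double minus Oc1 heterozygote and the interaction add up the deposited log2 fold changes, with two-sided normal p-values adjusted by Benjamini-Hochberg over 22869 genes, unlisted genes counted as 1. The arithmetic of this derivation was tested on simulated data with normal errors, which does not check the normal approximation for these libraries. Every listed member is named. The members and gene lists were chosen with earlier results of these data known. Transcript lengths came from GENCODE M21. Alternatives tried were an adjusted p of 0.1, no fold minimum, a mean log2 CPM of at least 1, exchanged headings, and other variances and adjustment for the derived comparisons.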

Additional observations from a re-analysis of the deposited data

Results flagged for a closer look

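For 6 of the listed genes the change with the Oc1 allele differed between the Pdx1 heterozygous and the wild-type background by the test of the interaction. The interaction was 1.598 for Wnt11, 1.454 for Wnt5b, 1.228 for Sfrp1, 1.176 for Sfrp2, 0.8145 for Fzd7 and -0.6855 for Fzd5 on the log2 scale. Wnt11 was called in double against Pdx1 heterozygotes, and the other 5 had an adjusted p under 0.05 in the Oc1 heterozygotes against control per the authors' deposited table. A sample far from the others could not be looked for, since values per library were not analysed here.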

How the results depend on the processing

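The 12 calls of members in the derived comparisons held with either variance estimate. An adjusted p of 0.1, no fold minimum and adjustment over the listed genes only loosen the rule and could lose no call. Requiring a mean log2 CPM of at least 1 left 21 of the 27 calls across the 7 comparisons, and in Pdx1 against Oc1 heterozygotes it left 2 of 5 members. With the headings of blocks 1 and 3 exchanged, a reading that the variances did not favour and under which Onecut1 would be higher in double than in Pdx1 heterozygotes, 5 of 21 calls held, 10 no longer passed and 6 changed sign. In double against Pdx1 heterozygotes Fzd10 would stand at 1.43, Sfrp2 at -0.71, Wnt11 at -1.28 and Wnt5b at -0.64, and the interaction at -0.25 for Sfrp2 and -0.97 for Wnt11. The 6 calls in Oc1 heterozygotes against control do not depend on these headings. No paired analysis was possible because the count columns carry no sample names; for the same reason leaving out each replicate, other normalizations, count filters and DESeq2 were not run. Depth per library is unknown here.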

Other observations

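Planar polarity genes, which orient cells within an epithelium and share Frizzled receptors with the ligands above, were counted as well. Of 19 counted, 3 fell and 1 rose in the Oc1 heterozygotes, against 2.59% and 3.66% of all genes. One of the 3, Dact1, is also among the feedback and target genes given above. Vangl2, a core polarity protein, fell by 0.70 and Prickle2, its cytoplasmic partner, by 0.61 (adjusted p = 4.19e-05 and 7.88e-07 per the authors' deposited table). Celsr1, a polarity cadherin of epithelia, rose by 0.66 (adjusted p = 1.04e-06 per the authors' deposited table). In the double heterozygotes Celsr3, a cadherin of neurons and endocrine cells, fell by 0.63 against control (adjusted p = 0.012 per the authors' deposited table), and Cer1, a secreted antagonist of Nodal, BMP and Wnt signals, by 0.91 (adjusted p = 0.0415). Celsr1 stood at -0.36 in the double heterozygotes against control, under the fold minimum (adjusted p = 0.045 per the authors' deposited table).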
